A study of Homo sapiens with 4 samples.

Results

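The 10 genes described here encode the enzymes that phosphorylate and dephosphorylate the translation initiation factor eIF2 alpha, together with their substrate and close partners. They were taken by gene symbol out of 58735 genes measured: the kinase genes EIF2AK1, EIF2AK2, EIF2AK3 and EIF2AK4, the substrate gene EIF2S1, the phosphatase subunit genes PPP1R15A and PPP1R15B, the GCN2 co-activator gene GCN1, the GCN2 repressor gene IMPACT, and EIF4EBP1. All 10 were among the 12866 genes with a mean of at least 1 FPKM (fragments scaled to exon length and to library size), to which the main test was applied. Transcript levels came from 4 RNA-seq libraries labelled Huh7, a liver cancer line. The 2 shCtrl libraries came from cells with a control short hairpin RNA, and the 2 shNME7 libraries from cells with a hairpin against NME7, a nucleoside diphosphate kinase family gene. The labels name no treatment, no time point and no clone, and do not say how many hairpins were used. They also do not say whether replicates were grown separately, so a p-value here reflects spread among these libraries, part of which may be technical. Coordinates are on GRCh38, and pairs of values below give replicate 1 first, then replicate 2.

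Phosphorylated eIF2 alpha slows the exchange of GDP for GTP on eIF2 and lowers general protein synthesis, while a few transcripts with upstream open reading frames, among them that of the transcription factor ATF4, are translated more. Each kinase answers to its own stress: HRI (EIF2AK1) to lack of haem and to mitochondrial stress, PKR (EIF2AK2) to viral RNA duplexes, PERK (EIF2AK3) to unfolded protein in the endoplasmic reticulum and GCN2 (EIF2AK4) to shortage of amino acids. Protein phosphatase 1 removes the phosphate when it is bound by GADD34 (PPP1R15A), which is induced by stress, or by CReP (PPP1R15B), which is made constitutively. The kinases are controlled mainly through their own activity, which RNA levels do not report. The comparison asked whether the transcripts of this machinery, which acts upstream of ATF4, differed between shNME7 and shCtrl.

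NME7 itself stood at 3.64 and 3.93 FPKM in shCtrl, against 0.835 and 0.626 in shNME7. Its log2 difference did not pass in limma-trend (-1.47, adjusted p 0.310) and passed in limma-voom (-2.39, adjusted p 0.000549). Recovered totals ran from 14877906 to 16991397 fragments per library, and the chi-square per degree of freedom between any pair of libraries was at least 12.5, so no 2 libraries agreed within sampling noise. The liver markers fixed for the labelled line were nearly absent: 0 of 8 reached 1 FPKM in every library, APOA1, APOB and FGB were at 0 in all 4, and the summed level of the 8, AFP and ALB included, ran from 0.0516 to 0.104 FPKM in shCtrl and from 0.0858 to 0.110 in shNME7. The data therefore go against the cell type label, and the libraries are called here by their labels only. Of 4 fibroblast markers COL1A1 and LUM were present (summed level 23.8 to 25.1 FPKM in shCtrl and 19.0 to 22.4 in shNME7), COL1A2 and DCN were near 0, and the 4 leukocyte markers summed to at most 0.0283 FPKM. The 4 endothelial markers summed to 1.94 to 2.29 FPKM in shCtrl and 2.81 to 3.47 in shNME7, with KDR at 0 and VWF near 0. CDH5 stood at 1.70 and 1.31 FPKM in shCtrl, against 1.88 and 2.67 in shNME7. PECAM1 stood at 0.559 and 0.615, against 0.909 and 0.797. The part of these cell types in the differences below was not tested.

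Both phosphatase subunit transcripts and, by less, the PERK transcript had lower values in both shNME7 libraries, while the other kinase and partner transcripts overlapped between the groups. PPP1R15A averaged 13.6 ± 1.66 FPKM in shCtrl and 8.87 ± 0.277 in shNME7 (mean ± SD, n = 2 per group, here and below), 1.53-fold lower. PPP1R15B averaged 48.5 ± 2.32 and 37.2 ± 5.16 FPKM, 1.30-fold lower. In these bulk libraries fewer cells with a transcript and less of it per cell cannot be told apart. Neither passed the test over all genes. In limma-trend on log2(FPKM + 1), with Benjamini-Hochberg adjustment, 0 of the 10 genes were called at an adjusted p under 0.05, where 0% of all 12866 tested genes were called. At an unadjusted p under 0.05 the test held PPP1R15A and PPP1R15B, 2 of the 10, against 6.68% of all tested genes. Both were lower in shNME7, as were 3.22% of all tested genes at that p, and 0 of the 10 were higher, against 3.46%. limma-voom on the fragments recovered from the FPKM values called 0 of the 10 and 0.132% of 15112 genes. The median log2 difference of the 10 was -0.02, beside 0.01 over all tested genes.

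**Figure D1:**
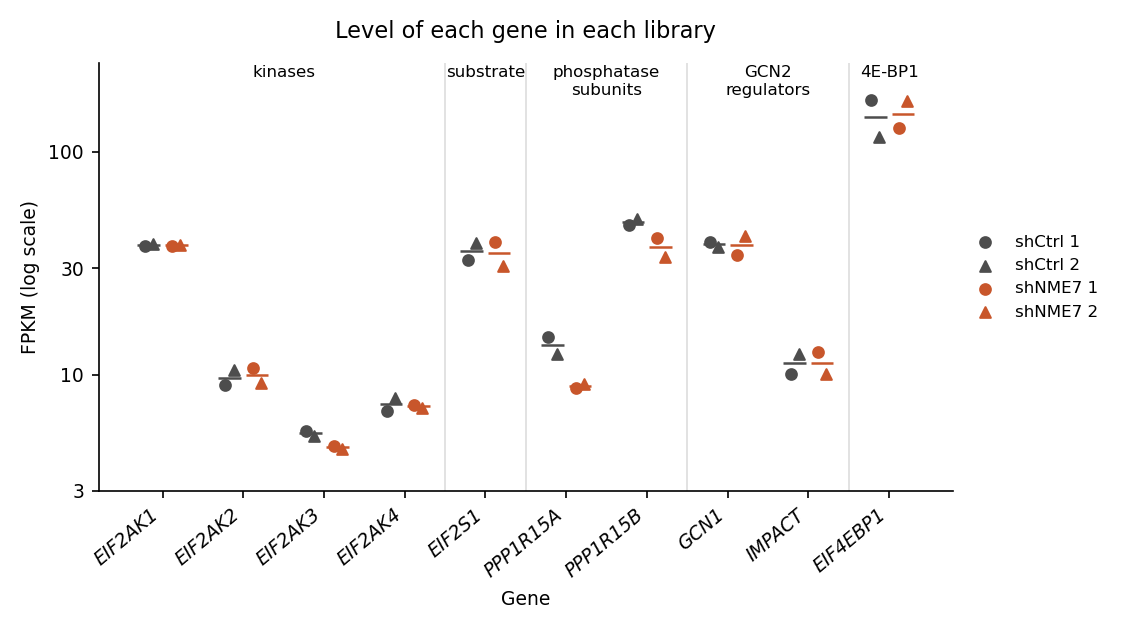
FPKM (log scale) of each gene in each library, with short lines at the group means. For PPP1R15A, PPP1R15B and EIF2AK3 the shNME7 points lie under the shCtrl points, and the other 7 genes overlap between the groups.

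The substrate comes first because the kinases and phosphatases meet at a single residue of it. EIF2S1 (ENSG00000134001, chromosome 14, 67359997 to 67386516 on the plus strand of GRCh38) encodes eIF2 alpha. Its coding sequence holds 1 serine codon followed directly by 3 arginine codons, codon 52 counted from the initiator methionine, which is the regulatory serine 51 of the usual numbering. It lies in exon 2 of 8 of the principal transcript. The stretch around it, read from the GENCODE release 29 transcript at chr14:67364900-67364944, plus strand, is shown with that codon in capitals.
EIF2S1 coding strand: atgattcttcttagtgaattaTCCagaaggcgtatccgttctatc

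EIF2S1 stood at 32.5 and 38.9 FPKM in shCtrl, against 39.2 and 30.8 in shNME7. The groups overlapped fully, with the lowest and the highest value both in shNME7. Its log2 difference was -0.03 (SE 0.18, 95% interval -0.46 to 0.39, limma-trend adjusted p 0.973).

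HRI was the most abundant of the 4 kinase transcripts and the steadiest of all 10 genes. EIF2AK1 (ENSG00000086232, chromosome 7, 6022244 to 6059230, minus strand) stood at 37.7 and 38.7 FPKM in shCtrl, against 37.7 and 38.3 in shNME7. These values lay within 1 FPKM of each other, on 3147 to 3609 fragments per library. The log2 difference was -0.01 (SE 0.13, 95% interval -0.32 to 0.31, limma-trend adjusted p 0.993). HRI made up 62.2% to 63.8% of the summed FPKM of the 4 kinases in shCtrl and 62.3% to 64.7% in shNME7.

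PKR, whose gene is itself induced by interferon, overlapped between the groups in FPKM. EIF2AK2 (ENSG00000055332, chromosome 2, 37099210 to 37157065, minus strand) stood at 8.93 and 10.4 FPKM in shCtrl, against 10.7 and 9.18 in shNME7. shCtrl 2 and shNME7 1 were the higher pair. In log2 the difference was 0.04 (SE 0.15, 95% interval -0.33 to 0.40, limma-trend adjusted p 0.965). With a trend on GC content and exon length removed from each library, both shNME7 values lay above those of shCtrl, and the difference was 0.17 in limma-trend and 0.21 in limma-voom, neither of which passed. The other interferon-stimulated genes on a list of 8 had 6 tested members, and in all 6 the shNME7 values lay above both shCtrl values, as in 17.8% of all tested genes. Their median log2 difference was 0.57, but neither limma-trend nor limma-voom called any of them over all genes, and 4 had an unadjusted p under 0.05 in limma-trend, as did 6.68% of all tested genes. IFIT3, an antiviral gene, stood at 26.1 and 29.9 FPKM in shCtrl, against 40.8 and 51.1 in shNME7. IFI6 and ISG15 had the largest differences among the tested genes of the list, 1.14 and 1.01. MX1 and IRF9, left out of limma-trend by the filter at means of 0.228 and 0.390 FPKM, overlapped between the groups. They were named after their values were seen.

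PERK had the lowest level of the 4 kinases and was the only one whose groups did not overlap. EIF2AK3 (ENSG00000172071, chromosome 2, 88556741 to 88627576, minus strand) stood at 5.60 and 5.31 FPKM in shCtrl, against 4.79 and 4.64 in shNME7. Both shNME7 values lay below both shCtrl values, a mean 1.16-fold lower, on 391 to 484 fragments per library, where counting error alone is up to 5.06%. The log2 difference of -0.18 (SE 0.13, 95% interval -0.50 to 0.15) did not pass in limma-trend (adjusted p 0.836). With the GC and length trend removed the difference was -0.09 and the groups overlapped. That removal also widened the log2 gaps between replicates (1 minus 2). They went from 0.07 to 0.18 in shCtrl and from 0.04 to -0.14 in shNME7.

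GCN2 and its regulators, which together sense amino acid shortage, overlapped between the groups in FPKM. EIF2AK4 (ENSG00000128829, chromosome 15, 39934146 to 40035591, plus strand) stood at 6.87 and 7.81 FPKM in shCtrl, against 7.30 and 7.08 in shNME7. Its log2 difference was -0.02 (SE 0.14, 95% interval -0.36 to 0.31, limma-trend adjusted p 0.973). Both shNME7 values lay between those of shCtrl. With the GC and length trend removed both lay above them, with a difference of 0.08.

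GCN1 (ENSG00000089154, chromosome 12, 120127203 to 120194710, minus strand) encodes the ribosome-bound protein that GCN2 needs for activation. It stood at 39.6 and 37.4 FPKM in shCtrl, against 34.5 and 41.9 in shNME7, with both extremes in shNME7. In log2 the groups differed by -0.02 (SE 0.15, 95% interval -0.39 to 0.35, limma-trend adjusted p 0.982). With the GC and length trend removed both shNME7 values lay below those of shCtrl, with a difference of -0.05.

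IMPACT (ENSG00000154059, chromosome 18, 24426616 to 24453535, plus strand) encodes a protein that competes with GCN2 for GCN1. It stood at 10.1 and 12.4 FPKM in shCtrl, against 12.6 and 10.01 in shNME7. The high libraries, shCtrl 2 and shNME7 1, belonged to different groups. The group means were 11.2 ± 1.62 and 11.3 ± 1.81 FPKM, a log2 difference of 0.00 (SE 0.17, 95% interval -0.41 to 0.42, limma-trend adjusted p 0.996). The ratio of GCN1 to IMPACT in FPKM was 3.92 and 3.02 in shCtrl, against 2.74 and 4.18 in shNME7, so this ratio overlapped between the groups as well.

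The phosphatase subunits were the members with the largest differences. PPP1R15A (ENSG00000087074, chromosome 19, 48872392 to 48876057, plus strand) encodes GADD34, which closes the feedback loop on eIF2 alpha phosphorylation and is known as a target of the ATF4 pathway. It stood at 14.8 and 12.4 FPKM in shCtrl, against 8.67 and 9.06 in shNME7. Both shNME7 values lay below the lower shCtrl value, and the gap between the groups exceeded the gap between replicates in either. Recovered fragments numbered 726 and 619 against 403 and 476. The log2 difference was -0.56 (SE 0.15, 95% interval -0.91 to -0.21), with an unadjusted p of 0.00759 and an adjusted p of 0.603 in limma-trend. Of all tested genes, 1.67% had a difference at or below that of PPP1R15A. limma-voom gave -0.61 (SE 0.18) with an adjusted p of 0.380.

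PPP1R15B (ENSG00000158615, chromosome 1, 204403387 to 204411791, minus strand) encodes CReP, the constitutive subunit. It stood at 46.8 and 50.1 FPKM in shCtrl, against 40.9 and 33.6 in shNME7. Both shNME7 values lay below both shCtrl values, and shNME7 2 was the lowest. The log2 difference was -0.38 (SE 0.15, 95% interval from -0.75 to just under 0), with an unadjusted p of 0.0481 and an adjusted p of 0.746 in limma-trend. A difference at or below this was found in 4.37% of all tested genes. Without shNME7 2 the difference was -0.24, and without shNME7 1 it was -0.52.

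**Figure D2:**
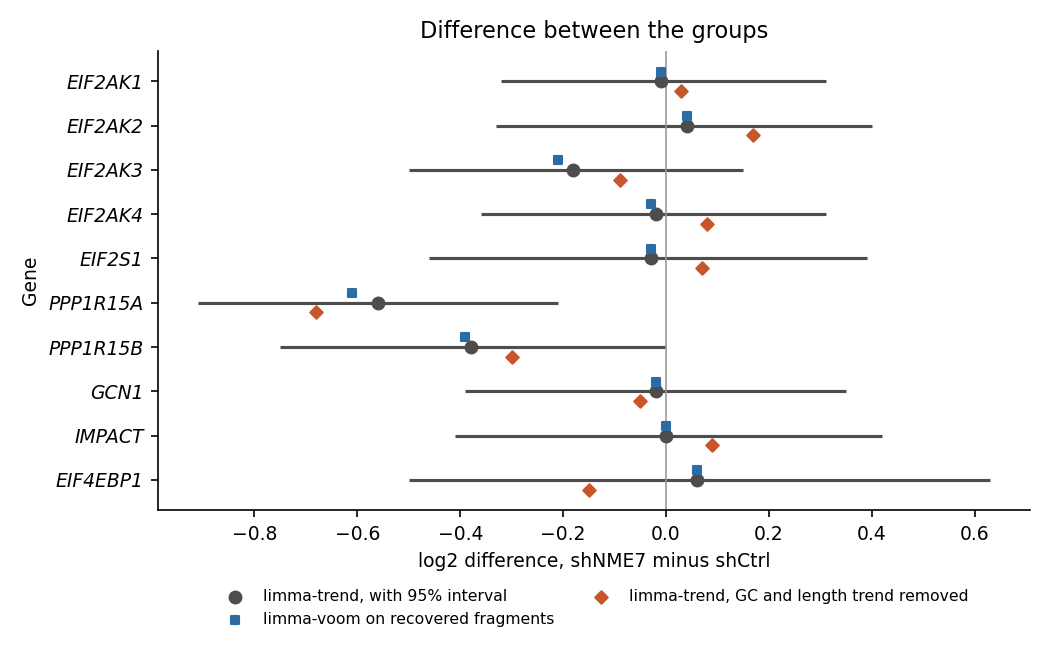
Log2 difference between shNME7 and shCtrl for each gene, by limma-trend with its 95% interval, by limma-voom on recovered fragments, and by limma-trend with the GC and length trend removed. The intervals of PPP1R15A and PPP1R15B lie below 0 before adjustment for the number of genes, and those of the other 8 genes include 0.

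Including EIF2AK3, 3 of the 10 genes had shNME7 values that both lay under the lower shCtrl value, where 18.4% of all tested genes did, and 0 of the 10 had both above, where 17.8% did. With the GC and length trend removed, 4 of the 10 lay below (PPP1R15A, PPP1R15B, GCN1 and EIF4EBP1) and 2 above (EIF2AK2 and EIF2AK4), against 23.3% and 23.9% of all tested genes. On the recovered fragments with that trend removed, EIF2S1 and IMPACT also lay above, making 4 below and 4 above, against 23.6% and 23.1%. PPP1R15A and PPP1R15B lay below under both treatments of the data. With the trend removed their log2 differences were -0.68 and -0.30.

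The promoters of these 2 genes are shown because their transcripts were the members that differed most and both belong to a pathway with known promoter elements. RefSeq start-site sequences of GRCh38.p14 were found for 8 of the 10 genes (all but EIF2AK1 and EIF4EBP1). The 250 bases before each start site were searched on both strands for 4 elements. They were the C/EBP-ATF response element (TGATGNAA), which ATF4 binds, the interferon-stimulated response element (GAAANNGAAA), the ER stress response element (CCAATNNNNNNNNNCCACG) and the cAMP response element (TGACGTCA), the last added to the search later than the others. Matches are in capitals, and no matches overlapped.
PPP1R15A promoter, chr19:48872171-48872420, plus strand: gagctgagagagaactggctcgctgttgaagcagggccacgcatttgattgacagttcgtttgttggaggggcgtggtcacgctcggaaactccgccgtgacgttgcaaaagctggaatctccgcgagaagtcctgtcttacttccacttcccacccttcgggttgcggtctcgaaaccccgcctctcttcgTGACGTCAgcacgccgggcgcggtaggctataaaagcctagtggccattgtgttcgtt
PPP1R15B promoter, chr1:204411818-204412067, minus strand: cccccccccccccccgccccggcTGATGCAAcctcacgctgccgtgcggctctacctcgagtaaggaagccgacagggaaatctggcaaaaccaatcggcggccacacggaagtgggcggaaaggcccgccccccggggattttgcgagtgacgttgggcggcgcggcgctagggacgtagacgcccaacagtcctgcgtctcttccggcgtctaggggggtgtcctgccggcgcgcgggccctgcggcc

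PPP1R15A held the cAMP response element from base -58 to -51, an element found in 1.65% of 35116 promoters of the same length. PPP1R15B held the C/EBP-ATF element from base -227 to -220, found in 3.14% of these promoters. None of the other 6 promoters had a match to any of the 4 elements within the 250 bases searched. The EIF2AK2 window ended in letters that fit the first part of the interferon-stimulated element. A match that crossed the start site would have been missed, so an element there was not tested. The interferon-stimulated element occurred in 3.02% and the ER stress element in 0.074% of all promoters. A match describes letters in a window and shows neither binding nor a cause of the values above.

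Upstream start codons, the feature that lets some transcripts be translated while eIF2 alpha is phosphorylated, were counted in the leader of each principal transcript of GENCODE release 29. Of the 10 genes 6 held at least 1 ATG before the coding sequence, against 50.3% of 10501 tested genes with such a transcript. EIF2S1 held 8, EIF2AK3 held 5, PPP1R15A and PPP1R15B held 2 each, and EIF2AK2 and IMPACT held 1 each. EIF2AK1, EIF2AK4, GCN1 and EIF4EBP1 held 0. These are counts of letters, not of open reading frames in use.

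Set side by side, the summed level of the 4 kinases was 59.1 and 62.2 FPKM in shCtrl, against 60.5 and 59.2 in shNME7. PPP1R15A and PPP1R15B together summed to 61.6 and 62.5 FPKM in shCtrl, against 49.6 and 42.7 in shNME7. The ratio of the first sum to the second was 0.960 and 0.995 in shCtrl and 1.22 and 1.39 in shNME7, without overlap. These sums were chosen after the single values had been seen, so no test is given. PPP1R15A supplied 23.9% and 19.8% of the subunit sum in shCtrl, against 17.5% and 21.2% in shNME7, so the share of GADD34 overlapped between the groups.

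**Figure D3:**
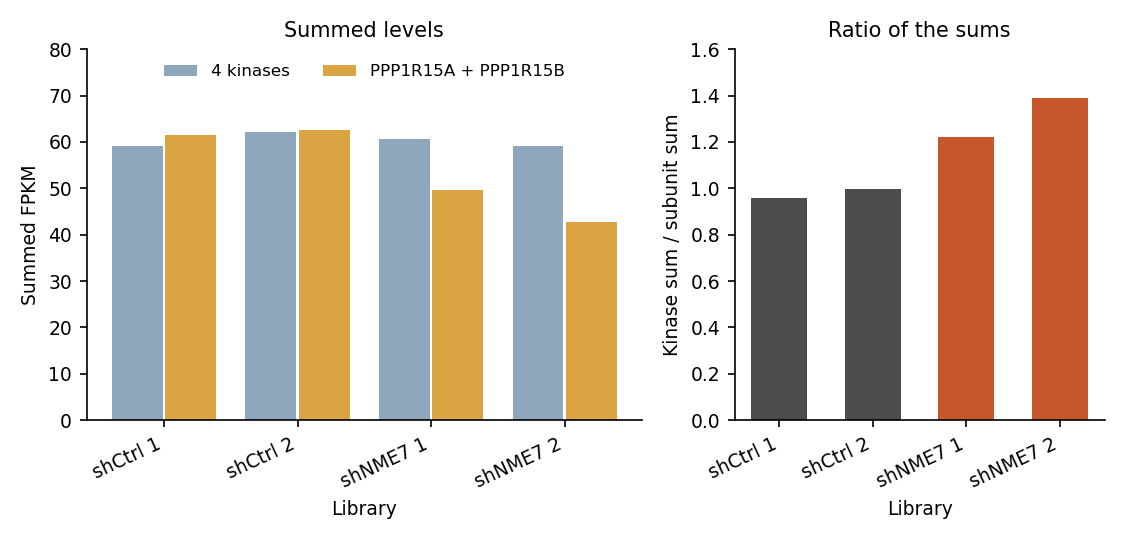
Left, summed FPKM of the 4 kinases and of PPP1R15A with PPP1R15B in each library; right, the ratio of the sums. The kinase sum stays between 59.1 and 62.2 FPKM, and the subunit sum is 61.6 and 62.5 in shCtrl against 49.6 and 42.7 in shNME7.

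EIF4EBP1 (ENSG00000187840, chromosome 8, 38030341 to 38060365, plus strand) encodes 4E-BP1, which blocks the cap-binding factor eIF4E and is known as an ATF4 target. It had the highest level of the 10 genes and the widest spread between replicates. It stood at 170 and 117 FPKM in shCtrl, against 128 and 169 in shNME7. The 2 high libraries, shCtrl 1 and shNME7 2, belonged to different groups. The log2 difference was 0.06 (SE 0.23, 95% interval -0.50 to 0.63, limma-trend adjusted p 0.961), an interval that holds differences as large as that of PPP1R15A in the higher direction. With the GC and length trend removed the difference was -0.15.

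The same pair of libraries stood apart in several members, in a direction that moved with GC content. EIF4EBP1 and GCN1, with 62.6% and 56.6% GC in their annotated transcripts, were higher in shCtrl 1 and shNME7 2 than in the other library of the same group. EIF2S1, IMPACT and EIF2AK2, with 39.1%, 39.8% and 39.6% GC, were lower in those libraries. For EIF4EBP1 the log2 gap between replicates was 0.54 in shCtrl and -0.39 in shNME7 (replicate 1 minus 2), and 0.20 and -0.06 with the GC and length trend removed. For EIF2S1 the gaps were -0.25 and 0.34, and -0.10 and 0.09 after removal. Gaps did not shrink in every gene. Those of EIF2AK3 widened from 0.07 and 0.04 to 0.18 and -0.14. For PPP1R15A they went from 0.23 and -0.06 to 0.03 and 0.15. EIF2AK1, at 47.3% GC, had gaps of -0.03 and -0.02. Over the 12860 tested genes with a GC value, the difference between shNME7 and shCtrl also went with GC content (rho 0.42 by Spearman, a description across genes that share these 4 libraries and are no independent replicates). PPP1R15A, at 57.9% GC, lay below in shNME7, and PPP1R15B, at 43.4%, did so too. The part of GC content in single differences was not tested beyond the removal of this trend.

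**Figure D4:**
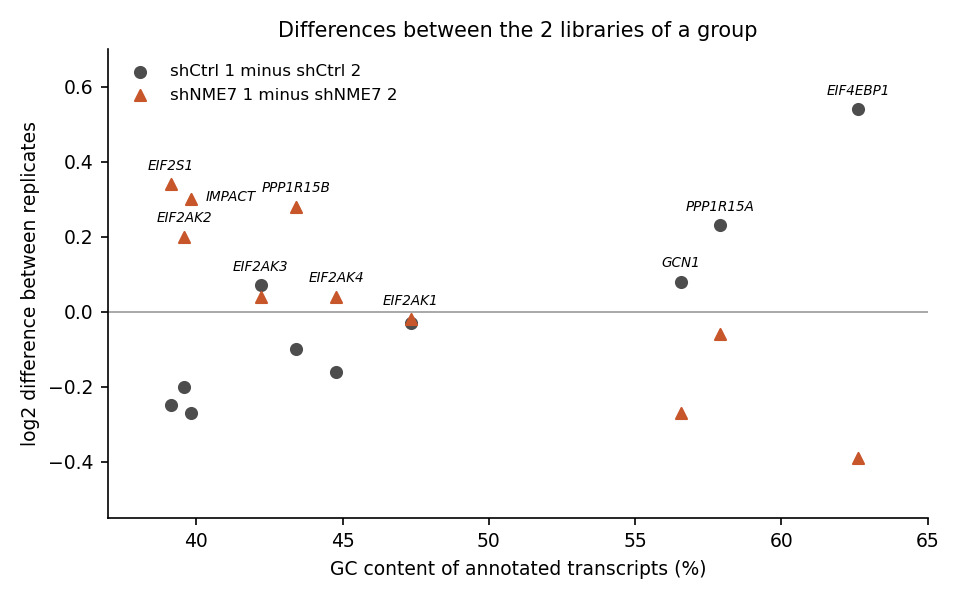
Log2 difference between the 2 libraries of a group on the log2(FPKM + 1) scale, replicate 1 minus replicate 2, against the GC content of each gene's annotated transcripts. EIF2S1, IMPACT and EIF2AK2, at 39.1% to 39.8% GC, have negative gaps in shCtrl and positive gaps in shNME7, and EIF4EBP1 at 62.6% has 0.54 and -0.39.

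By level per exon length, averaged over the 4 libraries, the order was EIF4EBP1 (146 FPKM), PPP1R15B (42.9), GCN1 (38.3), EIF2AK1 (38.1), EIF2S1 (35.4), IMPACT (11.3), PPP1R15A (11.2), EIF2AK2 (9.82), EIF2AK4 (7.27) and EIF2AK3 (5.08). EIF4EBP1 stood above all others in every library. PPP1R15B, GCN1, EIF2AK1 and EIF2S1 had overlapping ranges with their neighbours, as did IMPACT, PPP1R15A and EIF2AK2. EIF2AK2, EIF2AK4 and EIF2AK3 kept this order in all 4 libraries without overlap. The lengths are summed over all annotated exons, so a gene with long alternative exons is given a lower FPKM.

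Other genes of the pathway were read from 7 lists with 57 genes. Counts of genes whose groups do not overlap are to be read against the 18.4% of all tested genes that lay lower and the 17.8% that lay higher in shNME7. Of the 8 genes of eIF2, its exchange factor eIF2B and the GTPase activator eIF5, all were tested and 0 were called in limma-trend or limma-voom. The shNME7 values lay under both shCtrl values for the eIF2 beta and gamma subunit genes EIF2S2 and EIF2S3 and for EIF5. Both lay above for EIF2B2, EIF2B4 and EIF2B5, which were named after their values were seen. EIF2S2 averaged 85.7 ± 0.559 FPKM in shCtrl and 71.5 ± 15.0 in shNME7. EIF2S3 averaged 210 ± 7.89 and 180 ± 25.2, and EIF5 39.3 ± 2.57 and 33.1 ± 1.80. The median log2 difference of the list was 0.07, with single genes between -0.27 and 0.15.

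The catalytic subunits of protein phosphatase 1, which PPP1R15A and PPP1R15B direct to eIF2 alpha, overlapped between the groups for 3 of 3 genes. PPP1CB averaged 51.4 ± 3.38 FPKM in shCtrl and 43.6 ± 8.78 in shNME7, PPP1CC 40.6 ± 4.08 and 34.3 ± 5.06, and PPP1CA 40.7 ± 4.79 and 43.0 ± 9.27. Their adjusted p in limma-trend ran from 0.826 to 0.943.

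Of 10 regulators of the kinases, 0 were called in limma-trend or limma-voom, with a median log2 difference of -0.05. TARBP2, which encodes an RNA-binding inhibitor of PKR, had both shNME7 values above those of shCtrl, at 8.57 ± 1.09 FPKM in shCtrl and 10.5 ± 1.36 in shNME7 (log2 difference 0.27, limma-trend adjusted p 0.802). DNAJC3, whose product inhibits PERK and PKR, averaged 9.75 ± 0.838 and 8.52 ± 1.31 FPKM, and HSP90AB1, a chaperone gene, 832 ± 45.7 and 777 ± 112. Both overlapped. PRKRA, whose product activates PKR, was the other gene of this list with both shNME7 values higher, at 5.96 and 5.99 FPKM in shCtrl, against 6.43 and 6.36 in shNME7. Around 4E-BP1, 9 of 10 genes of cap binding and TOR signalling were tested and 0 were called by either tool, with a median of 0.03. EIF4EBP2, a close relative of EIF4EBP1, averaged 11.9 ± 1.62 and 10.3 ± 0.839 FPKM. EIF4G1, the scaffold of the cap-binding complex, averaged 61.4 ± 0.352 and 66.0 ± 10.4, and RPTOR, of TOR complex 1, 10.4 ± 1.49 and 9.54 ± 2.10. EIF4A1 and RPS6 were the 2 tested genes with both shNME7 values higher. EIF4A1 was near the filter, at 0.934 and 1.18 FPKM in shCtrl, against 1.85 and 1.68 in shNME7. It shares 41.1% of its exon length with AC016876.2 and 29.8% with SENP3-EIF4A1, both on the same strand, so its level is uncertain. In the 4 lists from eIF2 to TOR signalling 0 genes had an unadjusted p under 0.05 in limma-trend, against 6.68% of all tested genes. For EIF4A1 limma-trend gave a log2 difference of 0.43 (unadjusted p 0.0537). limma-voom gave it 0.75 (unadjusted p 0.0112, adjusted p 0.480). PRKRA, EIF4A1 and RPS6 were named after their values were seen.

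Downstream of eIF2 alpha, the mean of each of the 9 ATF4 branch genes was lower in shNME7, and the groups did not overlap for 8, all but ATF5, named for this after its values were seen (18.4% of all tested genes lay lower in this way). Their median log2 difference was -0.68. limma-trend called 0 of the 9 over all genes, 6 having an unadjusted p under 0.05, as did 6.68% of all tested genes. limma-voom called 2 lower, the stress pseudokinase gene TRIB3, with a log2 difference of -1.14, and the glutathione-degrading enzyme gene CHAC1, with -1.46 (adjusted p 0.00537 for both). Over all 15112 genes tested in limma-voom, 0.132% were called in either direction. ATF4 itself stood at 261 and 257 FPKM in shCtrl, against 207 and 182 in shNME7, a log2 difference of -0.41 (limma-trend adjusted p 0.729). SESN2, a stress-induced inhibitor of TOR signalling, averaged 21.8 ± 4.54 and 10.6 ± 2.46 FPKM. This list was chosen with its pattern in these libraries already known and is no independent evidence of direction. Of the known ATF4 pathway targets among the 10 genes, PPP1R15A had a log2 difference of -0.56 and EIF4EBP1 one of 0.06.

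Of the 9 genes of the ATF6 and XBP1 branches, the arms of the unfolded protein response that do not run through eIF2 alpha, 0 were called in limma-trend or limma-voom, and 2 had an unadjusted p under 0.05 in limma-trend, as did 6.68% of all tested genes. Both shNME7 values were lower for 5 (XBP1, ERN1, HERPUD1, DNAJB9 and HYOU1), against 18.4% of all tested genes, and higher for 1 (CRELD2), against 17.8%, and the median log2 difference was -0.13. HERPUD1, an ER-associated degradation gene, averaged 26.8 ± 1.05 FPKM in shCtrl and 17.9 ± 2.95 in shNME7. XBP1 averaged 74.0 ± 3.06 and 56.9 ± 8.92, and CRELD2, an ER stress-induced secreted protein gene, 4.66 ± 0.626 and 6.61 ± 1.88. ERN1, DNAJB9 and HYOU1 were named after their values were seen.

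**Figure D5:**
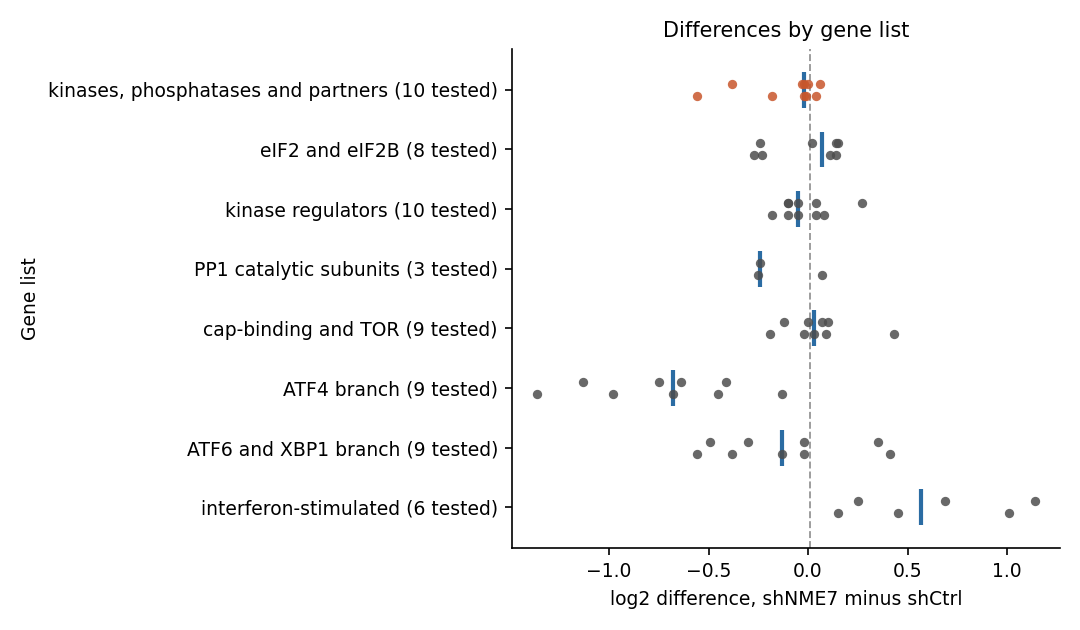
Log2 differences between shNME7 and shCtrl (limma-trend) of the 10 genes and of the tested genes of the 7 pathway lists. Each point is a gene, blue bars are list medians and the dashed line is the median of all tested genes; the median is -0.02 for the 10 genes, -0.68 for the ATF4 branch and 0.57 for the interferon-stimulated genes.

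Some members share annotated exon bases with neighbours, and the strand setting of the counting is not given in the sources used here. EIF2AK1 shares 9.59% of its exon length with AIMP2 on the opposite strand, EIF2AK3 14.4% with AC104134.1 and 0.699% with AC062029.1, both antisense, and EIF2S1 4.76% with ATP6V1D, so reads in those stretches cannot be assigned with certainty. EIF2AK2 shares 3.73% with AC007899.1, a processed pseudogene at 0 fragments, and 0.325% with GPATCH11. PPP1R15A, PPP1R15B, EIF2AK4, GCN1, IMPACT and EIF4EBP1 share no exon bases with another gene in GENCODE release 29. The same limit holds for some genes of the ATF4 branch. DDIT3 shares 27.2% of its exon length with MARS and ATF5 21.2% with NUP62, both on the opposite strand. ASNS shares 44.6% with AC079781.5 on the same strand, and DDIT4 41.2% with DDIT4-AS1 on the opposite strand.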

How the data were processed

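The deposited tables hold FPKM per gene, 1 table for each library, a unit stated per the file headers. The submitters' processing notes list HISAT2 2.0.5 and the build hg18. How fragments were counted, and on which annotation, is not given in the sources used here. GENCODE release 29, in which each of the 58735 IDs was found, supplied names, exon lengths and GRCh38 coordinates. Groups and replicate numbers came from sample titles. The members, lists, tests and rule for named genes (all 10 members, NME7, ATF4 and up to 3 genes per list with the largest difference and at least 5 FPKM in the higher group) were chosen with earlier results of these data known. Other genes are named as marker, overlapping or later-chosen genes.

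The main test was limma-trend (limma 3.58.1, R 4.3.3) on log2(FPKM + 1) for genes with a mean of at least 1 FPKM, two-sided, Benjamini-Hochberg adjusted over 12866 genes. Fold changes on this scale understate those of low genes. FPKM times exon length was a whole multiple of 1 step per library for 100% of values above 0 (tolerance 0.01), which gave fragments for limma-voom (mean of at least 10 fragments, median-ratio library sizes). GC content is that of annotated transcripts, and its trend with exon length was removed by loess (span 0.3). Alternatives were a pseudocount of 0.1, no filter, a replicate block, each library left out, limma-voom, the GC and length trend removed, and, added after seeing the data, a crossed pairing. Counting errors cover counting only.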

Additional observations from a re-analysis of the deposited data

How the results depend on the processing

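In each of 11 alternatives 0 of the 10 genes passed an adjusted p of 0.05. PPP1R15A (-0.76 to -0.44, adjusted p 0.0997 to 0.796), PPP1R15B (-0.52 to -0.24) and EIF2AK3 (-0.21 to -0.09) kept their direction in all 11. Their groups did not overlap, so the pseudocount, the filter, the blocks and the left-out libraries could not reverse them. Only limma-voom and removal of the GC and length trend could have done so. All 10 genes together had 110 values, of which 21 changed sign, all in the other 7 genes. With the GC and length trend removed the log2 difference turned to 0.03 for EIF2AK1, 0.08 for EIF2AK4, 0.07 for EIF2S1 and -0.15 for EIF4EBP1 in limma-trend, and to 0.05, 0.12, 0.10 and -0.19 in limma-voom. With each library left out in turn the difference ran from -0.02 to 0.01 for EIF2AK1, from -0.07 to 0.14 for EIF2AK2, from -0.11 to 0.06 for EIF2AK4, from -0.20 to 0.14 for EIF2S1, from -0.15 to 0.12 for GCN1, from -0.15 to 0.16 for IMPACT and from -0.21 to 0.33 for EIF4EBP1. The cause of these changes was not tested.

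The number of genes called over the whole table, 0 in limma-trend, was 20 in limma-voom, 1 with the trend removed in limma-trend and 13 with it removed in limma-voom. It was 133 without shCtrl 1, 112 without shCtrl 2, 632 without shNME7 1 and 277 without shNME7 2, the lone library of a group being assumed to vary like the other group. Genes with groups that do not overlap numbered 3 of the 10, against 36.2% of all tested genes in either direction. With the trend removed they numbered 6, against 47.2%, in limma-trend and 8, against 46.7%, in limma-voom. With 1 library left out they numbered 6 to 8: 6 without shCtrl 1 (72.9% of all tested genes), shCtrl 2 (55.8%) or shNME7 1 (79.7%), and 8 without shNME7 2 (63.7%). The replicate number as a block called 122 genes and 0 of the 10. Deviations of same-numbered libraries correlated at -0.35 across genes. That value was taken without removal of the GC and length trend, so it cannot tell whether the numbers pair the samples. A crossed pairing, chosen after seeing the data, called 0 genes. With 2 libraries a group, an exact permutation test of a single gene cannot go below p = 0.333.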
